A study of Mus musculus with 6 samples.

Results

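NRF2, encoded by Nfe2l2, is a transcription factor that switches on genes against oxidants, and the 10 genes described here are Nfe2l2 itself, 5 genes it is known to control (Nqo1, Gclc, Gclm, Txnrd1 and Srxn1) and 4 widely expressed antioxidant enzymes (Sod1, Sod2, Cat and Gpx3). They were taken by gene name from a table of 55995 features measured by RNA-seq in mouse gastrocnemius, a calf muscle, and each of the 10 names matched 1 row. The host mice were of the NSG strain (NOD/SCID/IL2Rγ-null), which lacks mature T, B and NK cells, and all of them carried a subcutaneous xenograft of unmodified MDA-MB-231, a human breast cancer line, in the left flank. In the radiotherapy group the tumour was irradiated locally with 1 dose of 10 Gy of 6 MV X-rays, given at 6 Gy per minute, at a volume of about 800 mm3. The muscle of the other side was collected 3 days later. Control mice bore the same tumour without irradiation, and neither their day of collection nor the age or sex of any mouse is given in the labels. Each group held 3 libraries. Whether these came from separate mice is not stated, so the p-values below cover only the spread of these libraries, part of which could be technical.

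In resting cells the adaptor KEAP1 and the ligase scaffold CUL3 hold NRF2 at a low level by marking it for the proteasome. Oxidants and electrophiles modify KEAP1, and NRF2 then enters the nucleus, pairs with a small MAF protein and binds antioxidant response elements in its target genes. The products make glutathione, reduce thioredoxin and peroxiredoxins, and detoxify quinones, while superoxide dismutases, catalase and glutathione peroxidases remove superoxide and hydrogen peroxide, which contracting muscle forms in its mitochondria and at its membranes. NRF2 is itself controlled largely at the protein level, so its messenger RNA is an incomplete measure of its activity.

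Values are TPM, transcript levels scaled for length and library size, so levels of different genes can be compared. The libraries held 19299 to 21311 features above 0, and their depth in reads is unknown. All 12 skeletal muscle markers were detected in all 6 libraries. Radiotherapy replicate 3 stood apart. It differed from radiotherapy replicates 1 and 2 by a root mean square of 1.29 and 1.32 on the log2(TPM + 1) scale over the 11938 features averaging 1 TPM or more, while replicates 1 and 2 differed from each other by 0.52 and the control libraries by 0.68 to 0.80. The 12 muscle fibre markers summed to 167889 and 173378 TPM in radiotherapy replicates 1 and 2, to 98438 TPM in replicate 3 and to between 116505 and 130002 TPM in control. The 12 neutrophil markers summed to 11.2, 18.6 and 2979 TPM in radiotherapy replicates 1, 2 and 3 and to between 74.7 and 186 TPM in control. The 10 genes are therefore given with and without replicate 3, and without it also after a scaling that sets the typical gene equal between libraries (median of ratios). In whole muscle, fewer cells of a type and less RNA per cell cannot be told apart.

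All 10 genes lay lower in radiotherapy replicates 1 and 2 than in every control library, as did 58.8% of the 11938 features tested. In radiotherapy replicate 3 the same genes were spread over the whole range. There 4 of them (Gclm, Txnrd1, Sod1 and Gpx3) lay above every control library, 5 (Nfe2l2, Gclc, Srxn1, Sod2 and Cat) lay inside the control range or at its edge, and Nqo1 lay below it. Over all features, 31.5% lay above every control library in replicate 3, and 19.3% lay below every control library in replicates 1 and 2 and above in replicate 3, a pattern singled out after the values were seen. Nqo1 alone had all 3 radiotherapy libraries below every control library, 1 of 10 beside 19.3% of all features, and 0 of 10 were higher in all 3, beside 1.73%.

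**Figure D1:**
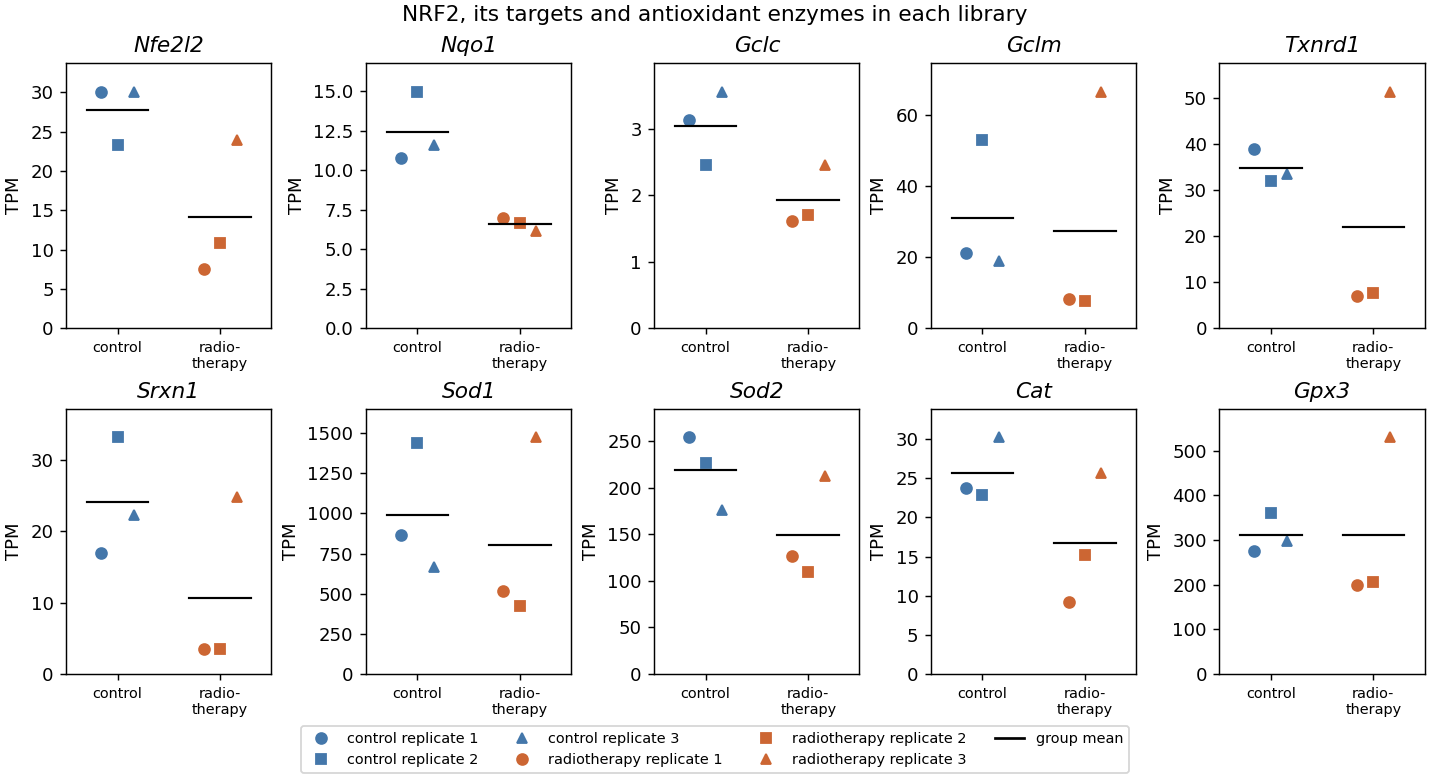
TPM of each of the 10 genes in each library, on linear axes that start at 0. Points are libraries (circle replicate 1, square replicate 2, triangle replicate 3) and black lines are group means. Radiotherapy replicates 1 and 2 lie below all control points in every panel, and the radiotherapy triangle lies apart from them in every panel other than that of Nqo1.

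With limma over all 6 libraries, 0 of the 10 genes passed an adjusted p of 0.05, beside 0.0419% of features called higher and 0.0168% called lower. At an unadjusted p under 0.05, 2 of the 10 were lower (Nfe2l2 and Nqo1), beside 13.3% of features lower and 1.18% higher. All 10 had a log2 change below 0, which 78.5% of features had, and their median was -0.70 beside -0.36 for all features. With radiotherapy replicate 3 left out, 7 of the 10 passed as lower (Nfe2l2, Nqo1, Gclm, Txnrd1, Srxn1, Sod2 and Cat) and 0 as higher, beside 27.6% of features lower and 1.98% higher. With median-of-ratios scaling as well, an alternative added after the data were seen, Txnrd1 alone passed as lower, 1 of 10 beside 2.72% of features. With median-of-ratios scaling over all 6 libraries, 4 of the 10 (Nfe2l2, Gclm, Txnrd1 and Srxn1) lay below every control library in replicates 1 and 2. So did 28.3% of features.

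Nfe2l2, the transcription factor itself, was at 29.98, 23.3 and 30.1 TPM in the control libraries against 7.49, 10.8 and 23.9 TPM in radiotherapy replicates 1, 2 and 3. Replicates 1 and 2 were far below every control library, and replicate 3 lay just inside the control range. The group means were 27.8 ± 3.88 and 14.1 ± 8.68 TPM (SD, n = 3 per group), a log2 change of -1.07 (SE 0.42, limma adjusted p = 0.333). Without replicate 3 the change was -1.51 (SE 0.23, adjusted p = 0.0140), and with median-of-ratios scaling as well it was -0.94 (SE 0.24, adjusted p = 0.0804). After scaling over all 6 libraries, the 3 radiotherapy libraries lay below all control libraries, which held for 1 of the 10 genes beside 9.95% of features. Replicate 3 did so narrowly, at 20.9 against a lowest control value of 21.8.

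Srxn1, Txnrd1 and Gclm, which serve the thioredoxin and glutathione systems, showed the widest gap between the radiotherapy libraries. Srxn1 encodes sulfiredoxin, which restores over-oxidised peroxiredoxins. It was at 17.0, 33.2 and 22.3 TPM among controls against 3.51, 3.59 and 24.9 TPM in radiotherapy replicates 1, 2 and 3. Replicates 1 and 2 therefore held 14.5% and 14.9% of the control mean, the lowest shares of the 10 genes, while replicate 3 held 103%. Its log2 change was -1.58 (SE 0.70, adjusted p = 0.354) over all libraries and -2.42 (SE 0.30, adjusted p = 0.0120) without replicate 3. Median-of-ratios scaling in that setting left it short of the threshold, at -1.89 (SE 0.38, adjusted p = 0.0525).

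Txnrd1 encodes the cytosolic selenoenzyme that reduces thioredoxin with NADPH. It was at 38.9, 31.9 and 33.5 TPM among controls, the tightest control group of the 10, against 7.09, 7.61 and 51.4 TPM in radiotherapy replicates 1, 2 and 3. Replicate 3 was above every control library, and replicates 1 and 2 held 20.4% and 21.9% of the control mean. The log2 change was -1.21 (SE 0.71, adjusted p = 0.431) over all libraries and -2.10 (SE 0.18, adjusted p = 0.0103) without replicate 3. It stayed past the threshold with median-of-ratios scaling in that setting, at -1.53 (SE 0.16, adjusted p = 0.0176).

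Gclm and Gclc encode the modifier and the catalytic subunit of glutamate-cysteine ligase, the rate-limiting enzyme of glutathione synthesis. Gclm was at 21.1, 52.9 and 18.9 TPM among controls against 8.20, 7.62 and 66.5 TPM in radiotherapy replicates 1, 2 and 3, so that replicate 3 held 8.41 times the mean of the other radiotherapy libraries. Gclc was far lower and moved less, at 3.13, 2.45 and 3.56 TPM among controls against 1.62, 1.71 and 2.45 TPM in radiotherapy, where replicate 3 equalled the lowest control library. The Gclm to Gclc ratio was 5.06 and 4.46 in radiotherapy replicates 1 and 2, close to the 6.74 and 5.31 of control replicates 1 and 3. It was 27.2 in radiotherapy replicate 3 and 21.6 in control replicate 2, so the high ratio occurred in 1 library of each group. Over all libraries the log2 changes were -0.72 (SE 0.84, adjusted p = 0.668) for Gclm and -0.47 (SE 0.26, adjusted p = 0.412) for Gclc. Without replicate 3, Gclm was at -1.69 (SE 0.45, adjusted p = 0.0417) and Gclc at -0.59 (SE 0.21, adjusted p = 0.0784). After median-of-ratios scaling as well, neither passed, with Gclm at -1.12 (SE 0.52, adjusted p = 0.234) and Gclc at -0.17 (SE 0.19, adjusted p = 0.585).

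Nqo1 encodes a quinone reductase that is widely used as a readout of NRF2. Its profile lay nearer to that of Gclc than to those of Gclm, Txnrd1 and Srxn1. It was at 10.8, 14.98 and 11.6 TPM among controls against 6.97, 6.65 and 6.13 TPM in radiotherapy, where replicate 3 was the lowest of the 6 libraries. The groups did not overlap, and the radiotherapy libraries were the most even of the 10 genes, with a mean of 6.58 ± 0.424 TPM against 12.4 ± 2.24 TPM in control (SD, n = 3 per group). The log2 change was -0.81 (SE 0.24, adjusted p = 0.294) over all libraries and -0.77 (SE 0.21, adjusted p = 0.0405) without replicate 3. After median-of-ratios scaling over all 6 libraries the groups overlapped, with 8.94, 9.15 and 5.35 in radiotherapy against 8.05 to 14.0 in control. With replicate 3 left out before that scaling, the log2 change was -0.22 (SE 0.26, limma adjusted p = 0.610).

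**Figure D2:**
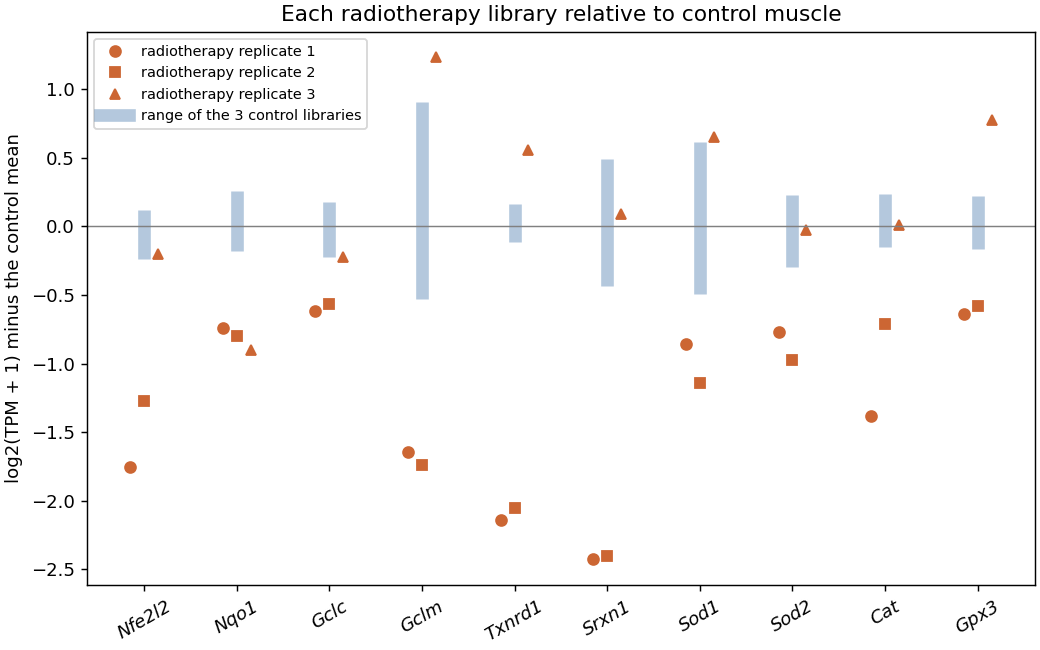
Each radiotherapy library as log2(TPM + 1) minus the mean of the 3 control libraries, with the range of the control libraries as a blue bar. Replicates 1 and 2 (circle and square) lie below the bar for all 10 genes, lowest for Srxn1 and Txnrd1, and replicate 3 (triangle) lies above the bar for Gclm, Txnrd1, Sod1 and Gpx3 and below it only for Nqo1.

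The sequence before the start is shown for the targets Srxn1, Gclm, Txnrd1 and Nqo1, and its part in their levels was not tested. The RefSeq promoter table (GRCm38.p6) held windows for 9 of the 10 genes, Gclc being the other, and 11 windows in all, as Txnrd1 has 3. In the 250 bases upstream of each start, both strands were searched for the antioxidant response element core TGACNNNGC, its close form TGAGNNNGC and the AP-1 site TGANTCA, which can overlap the second. Matches are in capitals, 5′ to 3′ on the gene's strand.
Srxn1, chr2:152105274-152105523, + strand: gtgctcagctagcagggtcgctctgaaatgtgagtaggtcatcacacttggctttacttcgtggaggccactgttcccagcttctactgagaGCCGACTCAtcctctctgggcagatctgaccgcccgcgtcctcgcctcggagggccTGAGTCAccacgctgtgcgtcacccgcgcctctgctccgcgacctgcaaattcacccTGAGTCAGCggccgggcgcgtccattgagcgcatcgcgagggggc
Gclm, chr3:122245307-122245556, + strand: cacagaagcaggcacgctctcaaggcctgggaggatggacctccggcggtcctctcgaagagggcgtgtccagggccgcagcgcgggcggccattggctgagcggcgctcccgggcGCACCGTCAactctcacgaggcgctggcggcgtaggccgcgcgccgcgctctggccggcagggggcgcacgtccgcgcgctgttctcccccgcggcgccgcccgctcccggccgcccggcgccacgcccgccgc
Txnrd1, the middle of its 3 starts, chr10:82858956-82859205, + strand: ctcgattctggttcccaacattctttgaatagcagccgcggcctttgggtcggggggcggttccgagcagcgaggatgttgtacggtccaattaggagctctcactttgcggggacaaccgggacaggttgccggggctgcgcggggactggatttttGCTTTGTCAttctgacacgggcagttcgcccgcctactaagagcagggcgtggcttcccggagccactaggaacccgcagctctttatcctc
Nqo1, chr8:107403206-107403455, - strand: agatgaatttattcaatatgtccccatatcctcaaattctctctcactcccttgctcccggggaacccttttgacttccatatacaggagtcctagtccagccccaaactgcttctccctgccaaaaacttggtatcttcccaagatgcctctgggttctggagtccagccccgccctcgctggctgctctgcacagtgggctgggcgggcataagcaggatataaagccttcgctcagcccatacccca

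The Srxn1 window held TGAGNNNGC on both strands, at 158 to 150 and at 45 to 37 bases before the start, and TGANTCA at 102 to 96 and at 45 to 39 bases, the last inside the TGAGTCAGC match. Gclm held TGACNNNGC on the opposite strand at 134 to 126 bases, and the middle window of Txnrd1 at 92 to 84 bases. The other Txnrd1 windows held none of the 3 motifs, and which start is used in this muscle was not measured. No match was found in the Nqo1 window, and bases farther upstream of any gene were not searched. Of the other genes, Nfe2l2 and Sod1 held 1 TGACNNNGC match each, and Sod2, Cat and Gpx3 held none of the 3 motifs. Of 32851 windows of the same length in the table, 10.2% held TGACNNNGC, 14.4% TGAGNNNGC, 23.0% either and 6.75% TGANTCA, beside 5 of the 11 windows of these genes for either core. A match describes the letters in the window and is not a measured binding site.

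Sod1 and Sod2 convert superoxide to hydrogen peroxide, Sod1 in the cytosol and Sod2 in the mitochondrion. Sod1 had the highest level of the 10 genes, at 864, 1435 and 666 TPM among controls against 519, 425 and 1473 TPM in radiotherapy replicates 1, 2 and 3. Its replicate 3 lay only just above the highest control library. Sod2 was at 254, 226 and 176 TPM among controls against 126, 110 and 212 TPM in radiotherapy, and replicate 3 lay within the control range. The Sod1 to Sod2 ratio was 6.95 in radiotherapy replicate 3 and 6.35 in control replicate 2, and between 3.41 and 4.10 in the other 4 libraries. These were the libraries that also had the highest Gclm levels and Gclm to Gclc ratios. The log2 changes were -0.45 (SE 0.53, adjusted p = 0.667) for Sod1 and -0.59 (SE 0.34, adjusted p = 0.423) for Sod2. Without replicate 3, Sod2 passed (-0.87, SE 0.21, adjusted p = 0.0336) and Sod1 did not (-0.998, SE 0.35, adjusted p = 0.0755). With median-of-ratios scaling in that setting, neither passed (adjusted p = 0.475 for Sod2 and 0.578 for Sod1).

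Cat, catalase, breaks down hydrogen peroxide, mainly in peroxisomes. It was at 23.8, 22.9 and 30.2 TPM among controls against 9.17, 15.2 and 25.7 TPM in radiotherapy replicates 1, 2 and 3, so that replicate 3 lay inside the control range and the others below it. Its log2 change was -0.69 (SE 0.39, adjusted p = 0.420) over all libraries, -1.04 (SE 0.26, adjusted p = 0.0362) without replicate 3 and -0.46 (SE 0.31, adjusted p = 0.374) with median-of-ratios scaling as well.

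Gpx3 encodes a glutathione peroxidase that is secreted into the plasma. It was at 275, 361 and 298 TPM among controls against 198, 207 and 530 TPM in radiotherapy. The group means were nearly equal, at 311 ± 44.1 and 312 ± 189 TPM (SD, n = 3 per group), through 1 library above and 2 below all control libraries. The log2 change was -0.15 (SE 0.42, adjusted p = 0.871), the smallest of the 10. It was 0.28 with median-of-ratios scaling and 0.15 with quantile normalisation, and it was -0.61 (SE 0.18, adjusted p = 0.0545) without replicate 3 as deposited but 0.005 (SE 0.27, adjusted p = 0.995) without it after scaling.

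**Figure D3:**
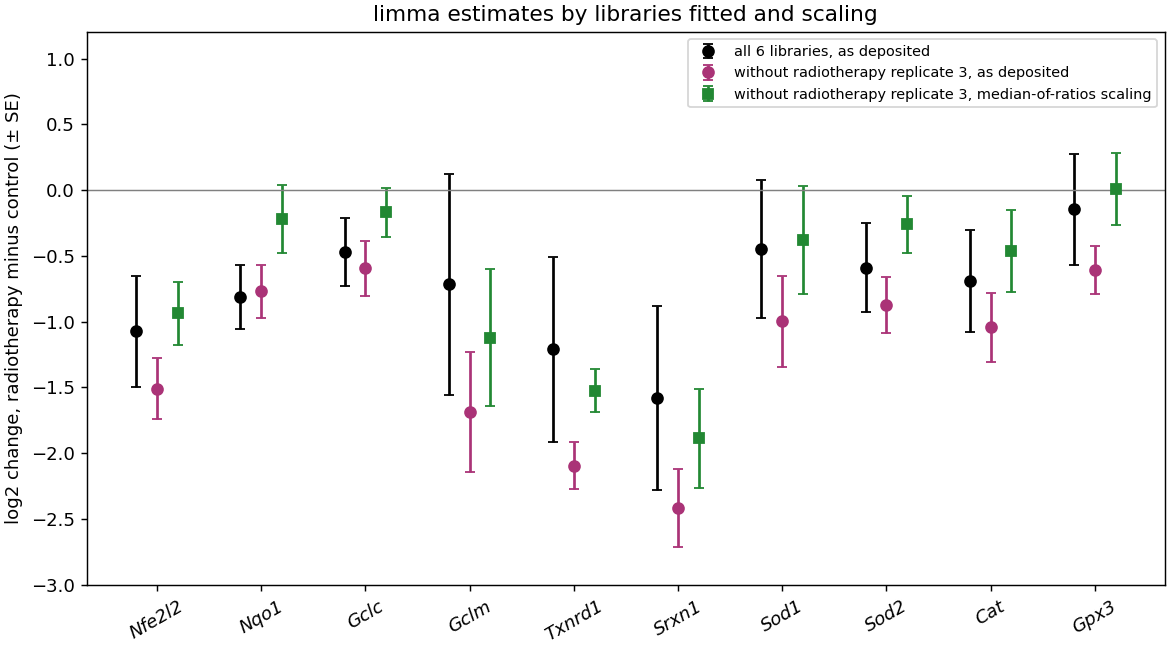
Log2 change of each gene, radiotherapy minus control, with its standard error, from all 6 libraries (black), without radiotherapy replicate 3 (purple) and without it after median-of-ratios scaling (green squares). The purple points lie lowest for Srxn1 and Txnrd1, at -2.42 and -2.10, and scaling brings the Gpx3 point to 0.005 while that of Txnrd1 stays at -1.53.

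The genes differed in whose profile was most alike over the 6 libraries. The measure was the root mean square difference between centred log2(TPM + 1) profiles. Among the 10 genes the closest pair was Nfe2l2 and Cat, at 0.24, followed by Gclc and Sod2 at 0.30 and Sod1 and Gpx3 at 0.31. Txnrd1 and Srxn1 were at 0.40 from each other. The farthest pair was Nqo1 and Gclm, at 1.07, both textbook NRF2 targets, and the partner subunits Gclc and Gclm were at 1.03. Nqo1 and Gclc were at 0.34, but Gclc ranked only 1656 in closeness to Nqo1 among tested features with a gene name. Of its 5 target genes here, Nfe2l2 was nearest to Gclc at 0.46 (rank 2627) and Txnrd1 at 0.47 (rank 2994). It was farthest from Gclm at 0.82 (rank 8578). Among all tested features with a gene name, those nearest to Nfe2l2 were Ttc33, Ier5, Rabggtb, Gdi2 and Ktn1, at 0.11 to 0.13, and Ier5, for example, was at 6.81 to 9.34 TPM among controls against 2.31, 3.08 and 6.58 TPM in radiotherapy. Nearest to Nqo1 were Cfap70, Uts2r, Tfb1m, Rnf157 and Lactb, at 0.07 to 0.10, and Lactb was at 9.27 to 11.1 TPM among controls against 5.96, 6.20 and 5.28 TPM in radiotherapy.

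A list of 92 further genes of NRF2 control and antioxidant defence was read in the same fit, of which 87 passed the filter on low values. With limma, 0 passed the adjusted threshold, and 11 were lower and 0 higher at an unadjusted p under 0.05. Their median log2 change was -0.35, beside -0.36 for all features. In 18 of 87 the 3 radiotherapy libraries all lay below the controls and in 1 above them, and 51 of 87 lay below every control library in replicates 1 and 2, shares near those of all features (19.3%, 1.73% and 58.8%). After median-of-ratios scaling these counts were 8 of 87 lower in all 3, beside 9.95% of features, and 25 of 87 in replicates 1 and 2, beside 28.3%. Without replicate 3, 29 passed as lower (27.6% of all features did) and 1 as higher (1.98%). With median-of-ratios scaling as well, 4 passed as lower (Mafk, Hmox1, Gsr and Sesn2) and 2 as higher (Gsta4 and Xdh), beside 2.72% and 2.76%. All of these other than Sesn2 were named after their values were seen. Replicate 3, left out there, held Hmox1 at 65.1 TPM (9.08 to 14.5 among controls) and Mafk at 40.1 TPM (15.1 to 21.2). It held Gsta4 at 1.53 TPM, below the 4.04 to 4.89 TPM of controls. Sesn2 also lay below the controls there, and Gsr and Xdh lay inside the control range. Of the 20 related genes described below, 14 passed as lower without replicate 3 (all but Fth1, Gpx4, Gpx7, Prdx5, Oxr1 and Selenow). The share of all features was 27.6%, but most of these 20 were picked by a small p in these same libraries. Their count is therefore raised by the choice. After scaling in that setting Sesn2 alone passed as lower, beside 2.72% of features.

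Genes that control NRF2 had the lowest median of the 5 groups, -0.71, and 9 of 10 lay below every control library in radiotherapy replicates 1 and 2, beside 58.8% of features. After median-of-ratios scaling the same count was 9 of 10, beside 28.3%, and the group's median was -0.28 over all libraries. Every radiotherapy library lay below the controls in 1 of 10 as deposited, beside 19.3% of features, and in 2 after scaling, beside 9.95%. Without replicate 3, 9 passed as lower (27.6% of features did), and 1 (Mafk) after scaling as well, beside 2.72%. Fbxw11, a substrate receptor of a ubiquitin ligase, was at 12.2, 7.30 and 10.99 TPM among controls against 4.12, 3.91 and 5.57 TPM in radiotherapy, lower in all 3. Bach1, the repressor that competes with NRF2 for its sites, was at 5.81, 2.66 and 6.55 TPM and at 1.02, 1.33 and 3.89 TPM. Nfe2l1, the NRF2 relative that drives proteasome genes, was at 153 to 216 TPM among controls against 68.7, 65.1 and 165 TPM in radiotherapy. Sqstm1, the autophagy receptor p62 that binds KEAP1, had the highest level of the group and split as Txnrd1 did, at 604 to 1165 TPM among controls against 250, 310 and 1440 TPM in radiotherapy. In replicate 3, 5 of these 10 genes lay above every control library, beside 31.5% of features.

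Of 25 other NRF2 targets, 6 had every radiotherapy library below the controls and 0 above, and in replicate 3, 9 lay above and 9 below every control library. The shares over all features were 19.3% and 1.73%, and 31.5% and 30.9% in replicate 3. After median-of-ratios scaling 3 of the 25 (Ephx1, Slc7a11 and Osgin1) had every radiotherapy library below the controls, beside 9.95% of features. Ephx1, an epoxide hydrolase, had the lowest log2 change, -1.95 (SE 0.48, adjusted p = 0.266), and was at 28.2, 34.4 and 33.6 TPM among controls against 11.4, 11.8 and 2.92 TPM in radiotherapy. Like Nqo1, it was lowest in replicate 3. Slc7a11, the cystine transporter that feeds glutathione synthesis, was at 9.11, 7.50 and 2.39 TPM and at 0.36, 0.68 and 1.99 TPM, and Osgin1 at 13.4 to 17.6 TPM and at 4.03, 6.09 and 9.17 TPM. Fth1, ferritin heavy chain, had the highest level, at 4014 to 5563 TPM among controls against 3298, 2830 and 9514 TPM in radiotherapy, where replicate 3 lay far above every control library.

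In the glutathione system, 6 of 19 tested genes had every radiotherapy library below the controls and 1 above, beside 19.3% and 1.73% of features. After median-of-ratios scaling only Glrx3 and Gsto1 of this group had every radiotherapy library below the controls, beside 9.95% of features. Glrx3, a glutaredoxin, was at 188, 160 and 214 TPM among controls against 87.1, 80.1 and 122 TPM in radiotherapy. Gsto1, a glutathione transferase, was at 30.1 to 32.4 TPM and at 14.8, 15.7 and 23.1 TPM, and Gpx7 at 11.9 to 22.8 TPM and at 9.51, 9.98 and 9.75 TPM. Scaled values of Gpx7 overlapped, at 12.2, 13.7 and 8.51 in radiotherapy against 10.7 to 21.3. Gpx4, which removes lipid peroxides, was the most abundant, at 853 to 1056 TPM among controls against 683, 787 and 1257 TPM in radiotherapy, the same order of libraries as Gpx3.

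Of 16 thioredoxin and peroxiredoxin genes tested, 3 had every radiotherapy library below the controls and 0 above, beside 19.3% and 1.73% of features. After median-of-ratios scaling 1 (Sesn2) had every radiotherapy library below the controls, beside 9.95% of features. Prdx3, the mitochondrial peroxiredoxin, was at 137, 127 and 142 TPM among controls against 80.0, 78.9 and 88.0 TPM in radiotherapy, at a log2 change of -0.72 (SE 0.24, adjusted p = 0.306). Without replicate 3 it was -0.76 (adjusted p = 0.0231), but after median-of-ratios scaling in that setting it was -0.15 (adjusted p = 0.642). Values scaled over all 6 libraries overlapped between the groups. Sesn2, a stress-induced sestrin, was at 2.79, 2.67 and 2.93 TPM and at 0.68, 0.35 and 1.43 TPM. Without replicate 3 it passed as deposited (-1.33, adjusted p = 0.0140) and after median-of-ratios scaling (-1.03, adjusted p = 0.0475). Txn2, mitochondrial thioredoxin, was at 236 to 330 TPM and at 174, 160 and 246 TPM, and Prdx5, the most abundant of the group by its mean, at 197 to 428 TPM and at 164, 138 and 331 TPM.

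Of 17 tested genes of superoxide, its sources and other antioxidant functions, including selenoproteins, 2 had every radiotherapy library below the controls and 0 above. The shares of all features were 19.3% and 1.73%. After median-of-ratios scaling 0 had every radiotherapy library below the controls, beside 9.95% of features. The group's median log2 change as deposited was 0.01. Selenop, the plasma selenium carrier, was at 65.2, 87.9 and 72.0 TPM among controls against 31.0, 40.0 and 40.0 TPM in radiotherapy. Sephs2, which makes the selenium donor for selenoproteins such as Txnrd1 and Gpx3, was at 14.1 to 22.4 TPM and at 7.91, 5.90 and 16.8 TPM. Oxr1 was at 5.61 to 11.04 TPM and at 5.03, 4.98 and 5.82 TPM. Selenow, a small muscle selenoprotein, was the most abundant, at 1709 to 2796 TPM and at 2158, 1906 and 1513 TPM, and did not separate the groups.

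**Figure D4:**
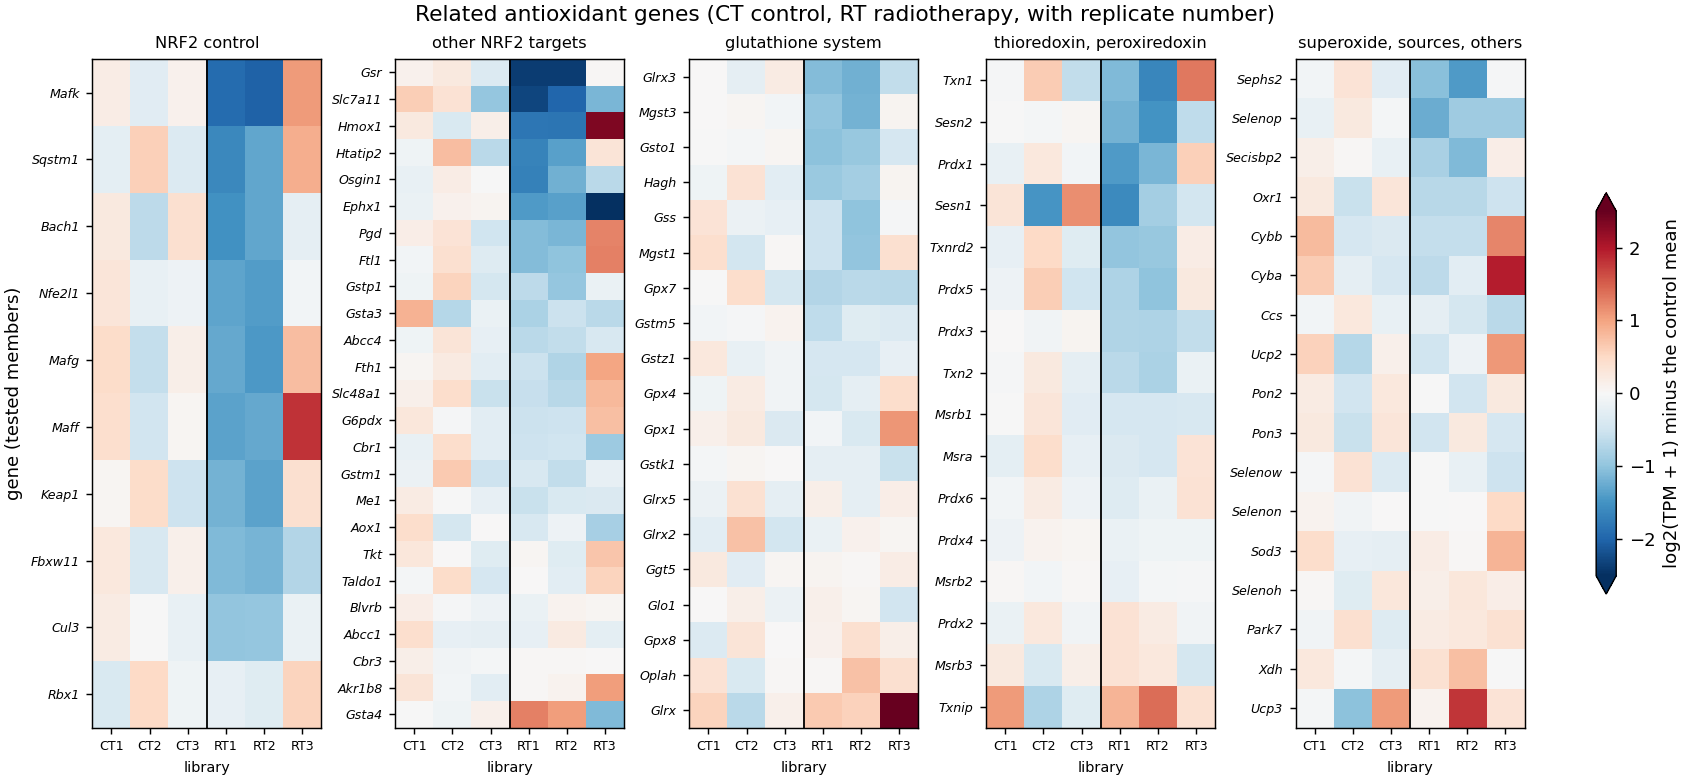
The 87 tested related genes in each library as log2(TPM + 1) minus the control mean, blue lower and red higher, in 5 groups ordered by their level in radiotherapy replicates 1 and 2. RT1 and RT2 lie below every control column for 9 of the 10 NRF2 control genes (all but Rbx1), and the column RT3 is red for some genes (Sqstm1, Fth1) and blue for others (Ephx1, Fbxw11).

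Markers of several other cell types also differed between these libraries. In radiotherapy replicate 3 all 12 neutrophil markers were at their highest of the 6 libraries, with S100a8 at 1141 TPM. S100a8 was at 26.3 to 56.1 TPM among controls, while radiotherapy replicates 1 and 2 held 2.74 and 3.95 TPM. In those libraries 8 of the 12 lay below every control library, beside 58.8% of the features tested. Mpo, Elane, Ly6g and Mmp8 were each at 0 in at least 1 of the 6 libraries. The 10 macrophage markers summed to 390 TPM in replicate 3, 71.9 and 116 TPM in replicates 1 and 2 and between 71.4 and 220 TPM in control. Lyz2 at 190 TPM and Cd68 at 121 TPM made up most of the sum in replicate 3, where 4 of the 10 were at their highest and Adgre1, C1qa, C1qb, C1qc, Mrc1 and Cd163 lay inside the control range. Endothelial markers summed to 271 TPM in replicate 3, 124 and 104 TPM in replicates 1 and 2 and between 141 and 160 TPM in control. In replicate 3, 4 of these 8 (Egfl7, Cldn5, Cdh5 and Emcn) were at their highest, Pecam1 and Flt1 lay inside the control range and Kdr and Tek below it. The sum of the 7 tendon markers ran the other way, at 55.9, 43.7 and 8.80 TPM in replicates 1, 2 and 3. It was between 8.23 and 18.8 TPM in control. Above every control library in replicates 1 and 2 lay 5 of the 7, but only 3 (Scx, Fmod and Thbs4) passed the filter on low values. Of those 3, Fmod lay below the controls in replicate 3, and Scx and Thbs4 lay inside the control range. The muscle fibre sum was highest in replicates 1 and 2, as given above, where 6 of the 12 markers lay above every control library. Of the 12, 7 were at their lowest in replicate 3. In replicate 3, erythroid (852 TPM) and pericyte and smooth muscle (44.6 TPM) sums lay inside the control range. The fibroblast sum lay below it (274 TPM), with 5 of 8 markers at their lowest of the 6 libraries and 2 (Pdgfra and Col15a1) at their highest. The adipocyte sum lay above it (851.5 TPM), and Fabp4 at 587 TPM made up most of that sum. Of the 8 adipocyte markers, 1 (Fabp4) was at its highest there and 1 (Adipoq) at its lowest. In replicates 1 and 2, erythroid, fibroblast and adipocyte sums lay inside the control range, and pericyte and smooth muscle sums above it (58.95 and 55.6 TPM). The part of these cell types in the levels of the 10 genes was not tested.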

How the data were processed

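Libraries were built from total RNA using a TruSeq kit (per the labels' protocols). Values are TPM as deposited by the authors, summing to 1000000 in each library. HISAT2, StringTie, RSEM and the build mm9 appear in the submitters' processing notes, without versions or roles, and which gene annotation was used is not given in these sources. Reads were not analysed here, so depth is unknown and neither a count test nor a detection limit was possible.

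Sample groups follow the labels, with columns matched to samples by name. Log2(TPM + 1) of the 11938 features averaging 1 TPM or more was fitted with limma 3.58.1 in R 4.3.3 (empirical Bayes with trend, two-sided, no covariates), with Benjamini-Hochberg adjustment over all of them and a threshold of 0.05. The test was checked on simulated data, where detection of known changes was required only at a spread below the real one. No simulated library was set apart, so the check does not cover a library like radiotherapy replicate 3. An exact permutation test of 3 against 3 libraries cannot go below 0.1. The 10 genes, the 92 related genes and the marker lists were chosen with earlier results of these data known. Named related genes are the 3 with the smallest p and the most abundant in each group. Nearest genes are the 5 with the smallest profile difference, without predicted models. Log2 changes are radiotherapy minus control. Promoters are from RefSeq (GRCm38.p6), which differs from the build named for the table, and were matched by symbol only. Plots used matplotlib 3.10.9.

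Other settings tried were a pseudocount of 0.1 or 0.5, a filter at 5 TPM or none, median-of-ratios scaling, quantile normalisation, a replicate block and the omission of each library in turn. Median-of-ratios scaling without radiotherapy replicate 3 was added after the data were seen. Its factors came from the libraries kept, while scaled values of single libraries, and counts from them, used a scaling over all 6 libraries.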

Additional observations from a re-analysis of the deposited data

How the results depend on the processing

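The counts of all features past the threshold depended most on radiotherapy replicate 3. Leaving out each library in turn gave 0 to 236 features higher (5 with all libraries) and 0 to 3298 lower (2 with all libraries), 0 to 7 of the 10 genes and 0 to 30 related genes. The upper end came from leaving out radiotherapy replicate 3 in all 4 cases, and with any other library left out 0 of the 10 genes passed. Without a filter on low values 0 features were higher and 0 lower, 3 and 1 under median-of-ratios scaling, and likewise 3 and 1 under quantile normalisation. A pseudocount of 0.1 gave 5 lower and a mean of at least 5 TPM gave 1 lower, a filter under which Gclc has no value. Median-of-ratios scaling without radiotherapy replicate 3, chosen after seeing the data, gave 329 higher, 325 lower, 1 of the 10 genes and 6 related genes. No pairing by replicate number is stated in the labels. Deviations of same-numbered libraries from their group means correlated at -0.045, -0.112 and -0.201. With so few libraries and radiotherapy replicate 3 apart from the others, these values cannot decide whether the numbers pair the samples. The fit with the replicate block gave 4 higher and 0 lower features and 0 of the 10 genes. Both rescalings moved the median of all features from -0.36 to -0.02. The direction turned for Gpx3 (0.28 under median-of-ratios scaling, 0.15 under quantile normalisation, 0.005 with that scaling and no radiotherapy replicate 3, and -0.61 to 0.10 with 1 library left out). It also turned for Fth1 (0.33 with median-of-ratios scaling, -0.65 to 0.23 with 1 library left out), Gpx4 (0.36, 0.051 with quantile normalisation, 0.29 with that scaling and no radiotherapy replicate 3, -0.33 to 0.11 with 1 library left out) and Selenow (0.20, and 0.52 with that scaling and no radiotherapy replicate 3). The cause was not tested. The other 9 genes kept a log2 change below 0 in every setting that gave a value. Depth in reads is unknown, so low values such as those of Gclc carry an error that cannot be given.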
